A study of Homo sapiens with 2 samples.

Results

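The interferon response and antigen presentation genes described here are 53 human genes, chosen by symbol and read on each array through probe sets that the platform annotation assigns to that symbol alone. They comprise 32 interferon-stimulated effectors, 12 RNA sensors and signalling genes, and 9 genes of class I antigen presentation. A probe set of its own was found for 52 of the 53, among 19775 genes with one on the array, and 38 of the 52 were measured above the floor defined below, among 13260 genes in all. STAT2 was not analysed here. The cells were PLC8024, a hepatocellular carcinoma line, from which the fraction lacking the surface marker CD133 had been collected by flow cytometry. One culture overexpressed miR-130b and the other carried an empty vector. The protocol and the series design describe lentivirus for both cultures, while the source name of the miR-130b culture speaks of transfection. Both cultures therefore share the CD133- sort and, by the protocol, exposure to a lentiviral vector, and untransduced cells were not analysed here. Each condition has 1 array, so no difference has a replicate check, no test was possible, and differences are described by size alone.

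Type I interferons bind the receptor pair IFNAR1 and IFNAR2, interferon gamma binds IFNGR1 and IFNGR2, and both switch on interferon-stimulated genes. Cells start the response when the cytosolic sensors RIGI and IFIH1 detect viral RNA and signal through MAVS, on mitochondria, to the transcription factors IRF3 and IRF7. Class I presentation, which interferon raises, shows peptides made by the proteasome at the cell surface, and in liver this system acts against hepatitis viruses.

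The mature products of miR-130b are given because the cultures are labelled miR-130b and empty vector. The labels do not name the arm, and neither arm was measured here. The sequences are from RefSeq (GRCh38.p14), at chr22:21653354-21653375 for the 3p arm and chr22:21653316-21653336 for the 5p arm, both on the plus strand, with the seed (bases 2 to 8) in capitals.
hsa-miR-130b-3p: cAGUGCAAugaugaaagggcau
hsa-miR-130b-5p: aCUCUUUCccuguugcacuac

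MX2, an interferon-induced GTPase that restricts lentiviruses, was the only one of the 38 measured members to differ by 1.5-fold or more. Its level was 4.41 in miR-130b cells, against 6.42 in empty vector cells, where the first value is below the floor defined below, so that MX2 was at least 2.91-fold lower, reckoned against that floor. The share of members at least 1.5-fold lower, 1 of 38, was near that of all measured genes, 2.68%. No member was at least 1.5-fold higher, a size reached by 0.294% of measured genes. At 2-fold, 1 member was lower, where 1.52% of measured genes were.

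Levels are the deposited log2 values, and a difference is the log2 level in miR-130b cells minus that in empty vector cells. The floor is 4.88, the median of all probe sets over both arrays, and a gene is measured if its brighter array reaches it. The brightest measured probe set stands for the gene. MX2 reached the floor in empty vector cells alone and OAS2 in miR-130b cells alone, so these genes were counted through the array in which they were higher, and the other 36 reached it in both.

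The remaining members differed little. Apart from MX2, differences ran from -0.39 to 0.42. The SD of the difference across the 38 members was 0.37, MX2 included, against 0.33 across all measured genes. The median over the 38 members was 0.04, against 0.03 over all measured genes, and the median size without regard to sign was 0.11 against 0.12. Probe sets for the same gene differed by an SD of 0.20 across the array, which exceeds the difference of most members. At 1.25-fold, 2 of 38 members were lower (MX2 and MAVS), where 6.24% of measured genes were, and 2 were higher (IFIH1 and EIF2AK2), where 5.05% were.

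**Figure D1:**
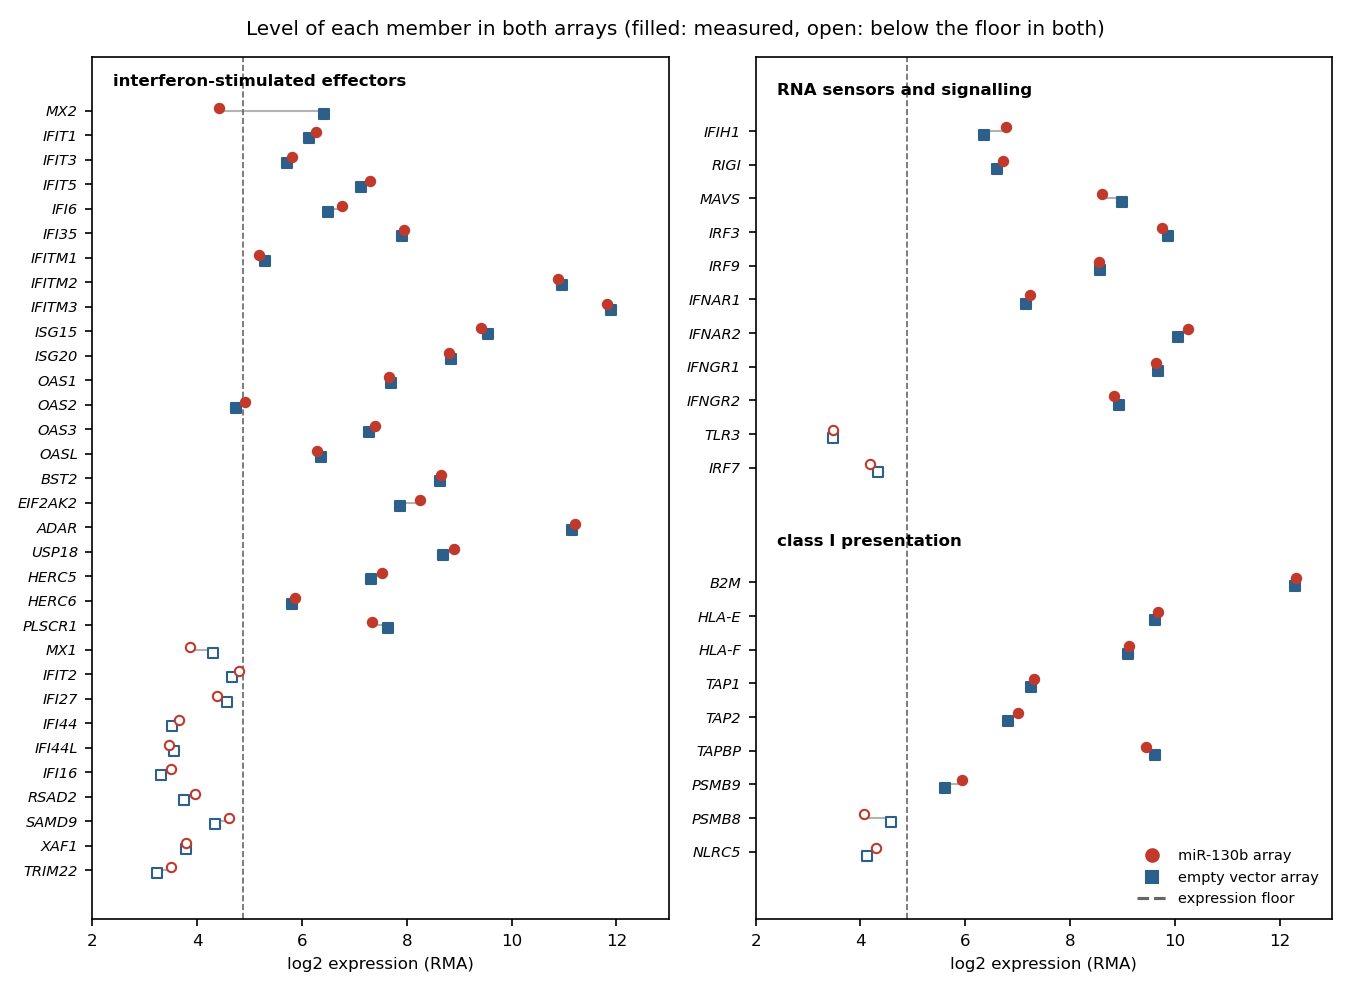
Log2 level (x axis) of the 52 members with a probe set of their own in the miR-130b array (red circles) and the empty vector array (blue squares), with open symbols for genes below the floor (dashed line) in both. MX2, at 4.41 in miR-130b cells and 6.42 in empty vector cells, has the widest gap, and its miR-130b symbol lies below the floor.

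Markers of the labelled cell type were present. All 11 hepatocyte and hepatocellular carcinoma markers with a probe set were measured, at 5.92 to 14.16 in miR-130b cells and 9.26 to 14.07 in empty vector cells. Of these, 2 were at least 2-fold lower in miR-130b cells, where 1.52% of all measured genes were. Of 12 leukocyte markers, 7 were below the floor in both arrays, among them PTPRC, CD3E and CD14, and the list averaged 5.21 in miR-130b cells and 5.25 in empty vector cells. LYZ, FCER1G, LAPTM5, ITGAM and AIF1 were measured, with LYZ at 9.46 in miR-130b cells and 9.78 in empty vector cells. The other measured LYZ probe set stood at 4.04, below the floor, in miR-130b cells and 5.76 in empty vector cells. Of 11 endothelial and stromal markers 6 were measured, and the list averaged 5.14 in miR-130b cells and 5.48 in empty vector cells. One of the 6, COL1A2, was at least 2-fold lower, at 4.90 in miR-130b cells and 7.98 in empty vector cells, and PECAM1 stood at 8.72 in miR-130b cells and 8.51 in empty vector cells. Of 5 plasmacytoid dendritic cell markers, CLEC4C and GZMB were below the floor in both arrays, while LILRA4, IL3RA and TCF4 were measured, and the list averaged 4.59 in miR-130b cells and 4.66 in empty vector cells. PROM1, the gene of CD133, stood at 6.07 in miR-130b cells and 9.19 in empty vector cells, above the floor in both although the cells were sorted as CD133-. The ratio of 3' to 5' control probe sets was 2.41 with miR-130b and 1.95 with empty vector for ACTB, and 1.52 with miR-130b and 1.37 with empty vector for GAPDH. The part of these differences in the values of the members was not tested.

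Among the antiviral GTPases, MX2 has 1 probe set, so its value could not be set against another. In bulk RNA, fewer cells expressing a gene and less of its RNA per cell cannot be told apart. Its neighbour in the RefSeq gene order, MX1, which acts against influenza and other viruses, was below the floor in both arrays, at 3.86 in miR-130b cells and 4.31 in empty vector cells.

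The IFIT proteins bind foreign RNA. IFIT1 had a level of 6.27 in miR-130b cells, against 6.14 in empty vector cells. For IFIT3 the levels were 5.81 with miR-130b and 5.72 with empty vector. IFIT5 stood at 7.30 in miR-130b cells and 7.13 in empty vector cells, and its other measured probe set also differed by 0.17. All of these differences were positive and below the SD between probe sets of a gene. IFIT2, next to IFIT3 in the gene order, was below the floor in both arrays.

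The IFITM proteins hinder the entry of enveloped viruses. IFITM1 stood at 5.19 with miR-130b and 5.29 with empty vector. IFITM2 had 10.88 in miR-130b cells and 10.96 in empty vector cells, and IFITM3 had 11.82 in miR-130b cells and 11.91 in empty vector cells. The 3 genes are neighbours with similar sequences, so their probe sets may share signal, and a probe set annotated to both IFITM1 and IFITM2 differed by -0.07.

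The OAS enzymes make a nucleotide messenger that triggers RNA decay. OAS1 had 7.67 in miR-130b cells and 7.70 in empty vector cells, with -0.07 in its other measured probe set. OAS3 had 7.39 with miR-130b and 7.27 with empty vector. OAS2 stood close to the floor, at 4.92 in miR-130b cells and 4.75 in empty vector cells. For the related OASL, the probe sets had opposite signs. The brightest gave 6.28 in miR-130b cells and 6.36 in empty vector cells, while the other gave 6.35 in miR-130b cells and 5.93 in empty vector cells.

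EIF2AK2 (PKR), the kinase that stops translation on double-stranded RNA, had the highest positive difference among measured effectors. It stood at 8.24 in miR-130b cells and 7.87 in empty vector cells, a difference of 0.37, with 0.07 in its other measured probe set. PLSCR1, a phospholipid scramblase, stood at 7.33 in miR-130b cells and 7.65 in empty vector cells, just inside 1.25-fold. IFI6, which limits cell death, had 6.77 in miR-130b cells and 6.50 in empty vector cells.

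ISG15 is a ubiquitin-like modifier that HERC5 attaches to proteins and USP18 removes. ISG15 stood at 9.41 in miR-130b cells and 9.54 in empty vector cells. HERC5 had 7.54 with miR-130b and 7.31 with empty vector, and USP18 had 8.90 with miR-130b and 8.69 with empty vector. The enzymes thus had positive differences, of 0.22 and 0.21, and the modifier a negative one, of -0.13, all under 1.25-fold. HERC6, the neighbour of HERC5, differed by 0.05.

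The 4 effectors left had differences from -0.05 to 0.04. They were the exonuclease ISG20, the virion tether BST2, the RNA-editing enzyme ADAR, and IFI35. Over the 22 measured effectors, 9 differences were below 0 and 13 above, with a median of 0.04. Of all measured genes, 41.9% had a difference below 0, and the median of all was 0.03. The 10 effectors below the floor in both arrays were MX1, IFIT2, IFI27, IFI44, IFI44L, IFI16, RSAD2, SAMD9, XAF1 and TRIM22.

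Among sensors, IFIH1 (MDA5), which detects long double-stranded RNA, had the highest difference of any member, 0.42. It stood at 6.79 in miR-130b cells and 6.37 in empty vector cells, in its only measured probe set. RIGI, which detects RNA with a triphosphate end, stood at 6.72 in miR-130b cells and 6.61 in empty vector cells, but its other measured probe set differed by -0.19. TLR3, the endosomal sensor, was below the floor in both arrays.

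MAVS, the adaptor shared by RIGI and IFIH1, was lower by every measured probe set. The brightest stood at 8.60 in miR-130b cells and 8.99 in empty vector cells, a difference of -0.39, and the others differed by -0.26 and -0.10. Of the transcription factors that act after it, IRF3 stood at 9.76 in miR-130b cells and 9.87 in empty vector cells, and IRF7 was below the floor in both arrays. IRF9, the DNA-binding partner of STAT2, stood at 8.55 in miR-130b cells and 8.58 in empty vector cells.

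The receptor subunits showed no common direction. IFNAR1 stood at 7.24 in miR-130b cells and 7.16 in empty vector cells, and its 4 probe sets ran from -0.24 to 0.08. IFNAR2 stood at 10.25 in miR-130b cells and 10.06 in empty vector cells, with -0.18 and -0.13 in its other probe sets. Both type I receptor genes thus had probe sets of either sign. IFNGR1 stood at 9.65 in miR-130b cells and 9.67 in empty vector cells, with -0.21 in its other measured probe set, and IFNGR2 stood at 8.83 in miR-130b cells and 8.93 in empty vector cells. Over the 9 measured sensors and signalling genes the median was -0.02, with 5 below 0 and 4 above, where 41.9% of all measured genes were below 0.

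**Figure D2:**
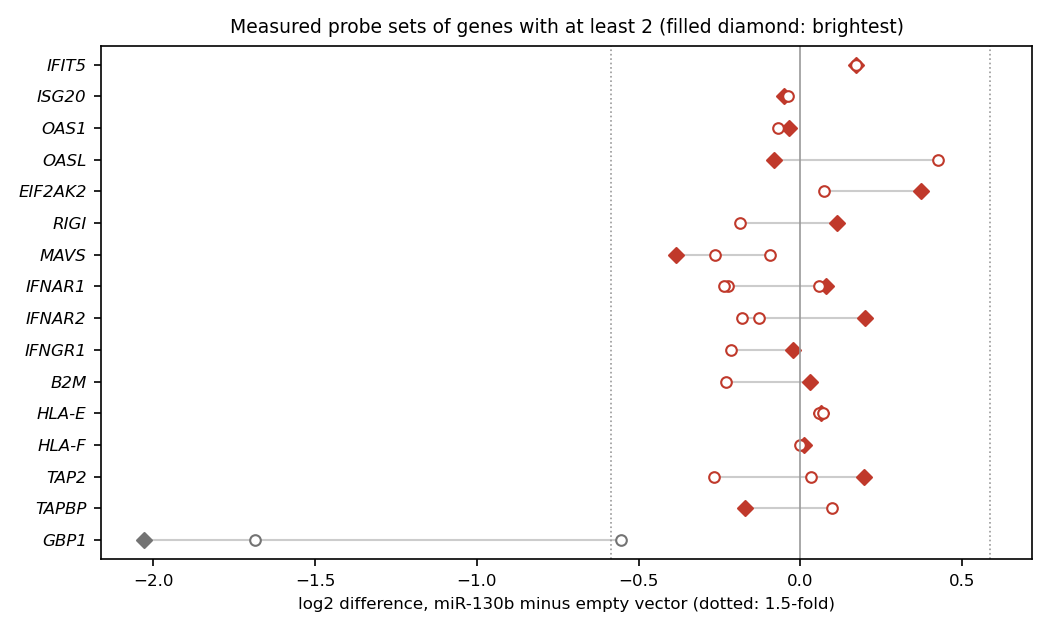
Log2 difference, miR-130b minus empty vector (x axis), of each measured probe set for the 15 members with at least 2 and, in grey, for GBP1. Filled diamonds are the brightest probe sets and dotted lines mark 1.5-fold. For 7 members the probe sets lie on both sides of 0, and MAVS lies below 0 throughout.

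In class I presentation, B2M encodes the light chain of the class I molecule. It stood at 12.32 in miR-130b cells and 12.29 in empty vector cells, but its other measured probe set differed by -0.23. HLA-E, a class I molecule read by natural killer cells, stood at 9.68 in miR-130b cells and 9.62 in empty vector cells, with all 3 probe sets between 0.06 and 0.07. HLA-F stood at 9.12 in miR-130b cells and 9.11 in empty vector cells. HLA genes are near-identical in places, so their probe sets may share signal.

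TAP1 and TAP2 form the peptide transporter. TAP1 stood at 7.31 in miR-130b cells and 7.26 in empty vector cells. TAP2 stood at 7.01 in miR-130b cells and 6.81 in empty vector cells, with 0.03 and -0.27 in its other measured probe sets. TAPBP (tapasin), which links the transporter to class I molecules, stood at 9.45 in miR-130b cells and 9.62 in empty vector cells, with 0.10 in its other measured probe set.

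PSMB8 and PSMB9 are the immunoproteasome subunits whose genes alternate with TAP1 and TAP2 along the chromosome. PSMB9 had the highest difference of the class I group, 0.31, at 5.93 in miR-130b cells and 5.62 in empty vector cells. PSMB8 was below the floor in both arrays, at 4.07 in miR-130b cells and 4.58 in empty vector cells. NLRC5, which activates class I genes, was also below it. Over the 7 measured class I genes the median was 0.05, with 1 difference below 0 and 6 above. Across all measured genes 41.9% of differences were below 0, and the median was 0.03.

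The medians of the 3 groups stayed within 0.13 of 0 under every processing choice tried. The effector median ran from 0.01 to 0.13, the sensor and signalling median from -0.11 to -0.02, and the class I median from 0.01 to 0.05. Over the same choices the median of all measured genes ran from 0.01 to 0.04.

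**Figure D3:**
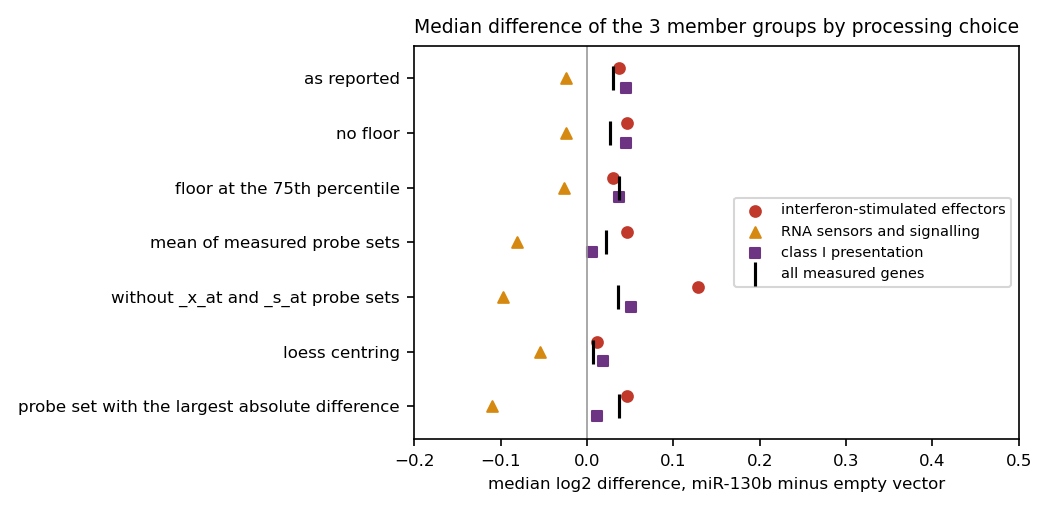
Median log2 difference, miR-130b minus empty vector (x axis), of the measured effectors, sensors and signalling genes, and class I genes under the reported processing and 6 alternatives; black ticks are the median over all measured genes. Effectors, class I genes and all measured genes lie above 0 and sensors below it in each row.

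Other genes of the pathway were read from 3 lists. Among 37 measured further interferon-stimulated genes, those at least 1.5-fold lower numbered 2 and those higher by that size 0, with a list median of -0.01. By the same size, 2.68% of all measured genes were lower and 0.294% higher, shares to set beside the later lists too. GBP1, a GTPase that attacks intracellular pathogens, stood at 4.11 in miR-130b cells and 6.14 in empty vector cells. In this probe set alone, its brightest, GBP1 was at least 2.39-fold lower against the floor. Its other measured probe sets, also below the floor in miR-130b cells, differed by -1.69 and -0.56. GBP2, the other measured GBP gene, stood at 7.61 in miR-130b cells and 7.58 in empty vector cells. CXCL10, a chemokine that attracts T cells, stood at 4.36 in miR-130b cells and 5.10 in empty vector cells. It too was below the floor in miR-130b cells, and against the floor its difference does not reach 1.5-fold. The next in size were the death ligand TNFSF10 (0.56), the ISG15-conjugating enzyme UBE2L6 (-0.48), the nuclear body gene SP100 (-0.46) and the ubiquitin ligase DTX3L (-0.39).

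Among 24 measured further ligands, receptors, kinases and adaptors, MYD88, the adaptor of Toll-like and interleukin-1 receptors, was alone beyond 1.5-fold. It stood at 6.58 in miR-130b cells and 7.68 in empty vector cells, 2.15-fold lower, in its 1 probe set. At least 1.5-fold lower were 2.68% of all measured genes. TICAM1, the adaptor of TLR3, differed by -0.45, the kinase IKBKE by -0.31, IRF5 by 0.29 and IRF1 by -0.27. The other measured probe set of IKBKE had the opposite sign, at 0.16. The interferon genes IFNA1, IFNB1, IFNG, IFNE, IFNK, IFNL1 and IFNL2 were below the floor in both arrays.

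Among 26 measured further antigen presentation genes, 0 were beyond 1.5-fold and the median was 0.05. The 4 with the highest differences were ULBP2, a stress ligand (0.51), the peptide-trimming enzyme ERAP2 (0.34), HLA-DOA (0.29) and MR1 (0.28). Other measured probe sets of HLA-DOA differed by -0.28 and -0.19, and those of MR1 by 0.10, -0.01 and -0.11.

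**Figure D4:**
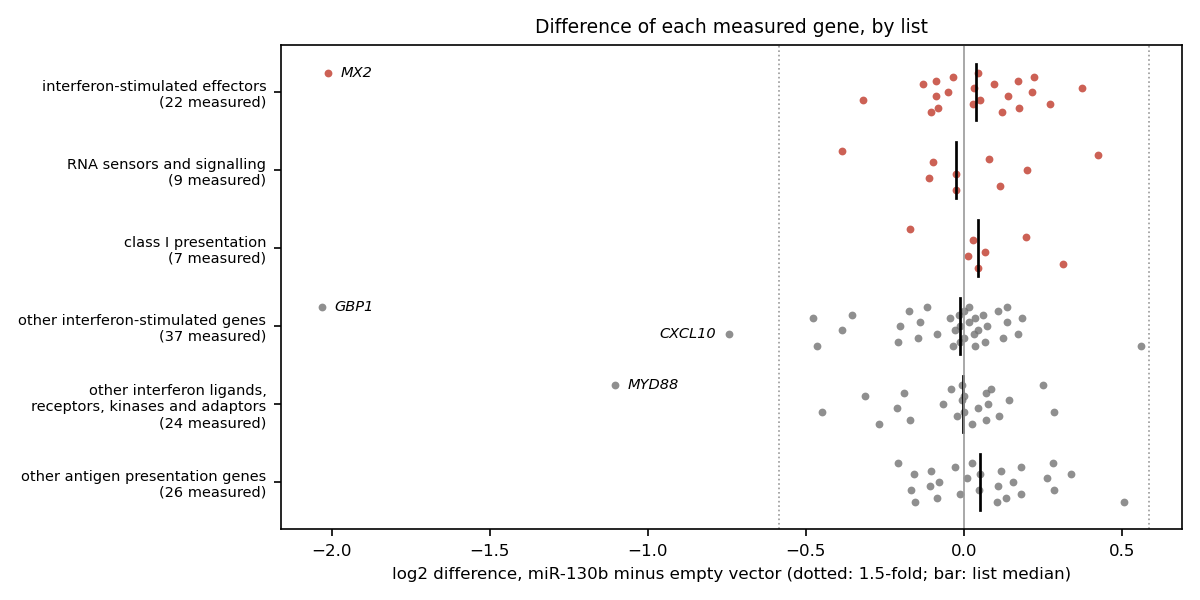
Log2 difference, miR-130b minus empty vector (x axis), of each measured gene in the 3 member groups (red) and the 3 further lists (grey), with list medians as bars and 1.5-fold as dotted lines. The deposited values of MX2, GBP1, MYD88 and CXCL10 lie beyond the lower dotted line, those of MX2, GBP1 and CXCL10 with miR-130b levels below the floor, and no gene lies beyond the upper one.

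The 250 bases before each RefSeq start (GRCh38.p14) were searched for interferon-responsive motifs. The interferon-stimulated response element was read as GAAANNGAAA or, on the other strand, TTTCNNTTTC, and the gamma-activated site as TTCNNNGAA, which is the same on both strands. A start was found for 41 members. The response element was at 50% of their 56 starts and at 3.02% of all 35116 starts. By group it was at 61.1% of effector starts, 9.09% of sensor and signalling starts and 55.6% of class I starts. The gamma-activated site was at 19.6% of member starts and 6.57% of all starts, and the motifs overlapped at 4 member starts.

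The 18 measured members with the response element had a median difference of 0.04 and ran from -0.32 to 0.42. The 12 without it also had a median of 0.04 and ran from -0.39 to 0.37. These 30 are not all of the 38 measured members, and MX2 is in neither set. Stretches that hold it, with the motif in capitals, are shown for the 3 further pathway genes whose deposited values were at least 1.5-fold lower (GBP1, CXCL10, MYD88) and for 3 members that were within 1.25-fold (ISG15, IFIT1, B2M). They are chr1:89065256-89065375 for GBP1 and chr4:76023628-76023747 for CXCL10, both on the minus strand, and, on the plus strand, chr3:38138541-38138660 for MYD88, chr1:1013344-1013463 for ISG15, chr10:89392467-89392586 for IFIT1 and chr15:44711333-44711452 for B2M.
GBP1: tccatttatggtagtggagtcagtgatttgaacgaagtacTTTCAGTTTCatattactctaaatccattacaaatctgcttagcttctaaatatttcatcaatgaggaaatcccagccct
CXCL10: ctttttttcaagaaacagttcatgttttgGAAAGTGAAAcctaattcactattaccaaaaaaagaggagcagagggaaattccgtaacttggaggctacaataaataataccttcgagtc
MYD88: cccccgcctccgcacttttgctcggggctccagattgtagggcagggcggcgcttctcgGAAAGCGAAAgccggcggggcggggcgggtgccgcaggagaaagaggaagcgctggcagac
ISG15: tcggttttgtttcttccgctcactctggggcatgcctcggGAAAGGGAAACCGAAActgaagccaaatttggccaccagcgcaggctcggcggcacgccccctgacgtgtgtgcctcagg
IFIT1: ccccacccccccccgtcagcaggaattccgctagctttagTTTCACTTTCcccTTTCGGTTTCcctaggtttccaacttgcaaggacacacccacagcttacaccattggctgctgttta
B2M: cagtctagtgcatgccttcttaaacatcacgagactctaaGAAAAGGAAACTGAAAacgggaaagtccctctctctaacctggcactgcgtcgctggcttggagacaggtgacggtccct
The matches in ISG15 and in B2M overlap each other, and IFIT1 holds 2 separate matches. A match describes letters in the window and is not a site of binding.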

How the data were processed

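Total RNA was hybridised to 1 array per culture. The authors deposited log2 values for 54675 probe sets, made with RMA per the submitters' processing notes, whose version was not given in the sources used here. In its standard form RMA sets both arrays on a common distribution, so a shift shared by most genes would not be seen. Of 54613 probe sets that are not controls, 41091 had 1 symbol in the platform annotation, 1801 had several and 11721 had none, and only the first kind was used. By Entrez identifier 41037 were found in RefSeq, and 0 symbols changed.

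Where a level lay below the floor, a fold was reckoned against the floor, as a bound added after the values were seen. Computed here were differences, the floor and the brightest measured probe set per gene. The steps were run on simulated data with changes planted in all probe sets of bright genes. That run did not cover genes near the floor or probe sets that disagree. The number of arrays limits precision, and folds of 1.5, 1.25 and 2 are rules of size. All members are accounted for, with full values for those past 1.5-fold, the 6 with the largest differences in each group and the gene families. Of further lists, genes past 1.5-fold and up to 4 more were named. The members and lists were chosen with earlier results of these data known, and the 1.25-fold counts after the values were seen. Alternatives changed the floor (none, or the upper quartile), the probe sets (mean, largest difference, or none ending in _x_at or _s_at) and the scaling (loess, span 0.3). Python 3.11.15, numpy 2.4.6, pandas 2.3.3, statsmodels 0.14.6 and matplotlib 3.10.9 were used.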

Additional observations from a re-analysis of the deposited data

How the results depend on the processing

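The count of members at least 1.5-fold lower was 1 under the reported processing and 5 of 6 alternatives. With the floor at the upper quartile of probe sets (6.98), which MX2 does not reach, it was 0. The share of all genes lower by that size ran from 1.91% with no floor to 3.63% with the largest-difference probe set. It was 2.32% with the upper-quartile floor, against 2.68% as reported. The count at least 1.5-fold higher was 0 under all 6, where 0.193% to 0.573% of all genes were. The 1.25-fold counts, and their alternatives, were chosen after seeing the data. Lower by 1.25-fold, they were 4 with no floor, which lets in genes below it, 1 with the upper-quartile floor, which leaves fewer genes, 1 with the mean of probe sets and 3 with loess centring, against 2 as reported. Higher by 1.25-fold, they were 1 with the upper-quartile floor, 1 with the mean of probe sets, 3 without probe sets ending in _x_at or _s_at and 3 with the largest-difference probe set, against 2 as reported. At 1.25-fold the share of all genes was not computed under the alternatives, so these counts have none beside them. The cause of a changed count was not tested where none is given. The difference of GBP1 was -1.42 with the mean of probe sets and -0.56 without those ending in _x_at or _s_at, all from miR-130b levels below the floor, and these alternatives were also added after seeing the data. Of the 38 members, 9 took both signs over these settings (B2M, BST2, HLA-F, IFI35, IFNAR1, IFNAR2, OASL, RIGI and TAP2). Against the SD of 0.20 between probe sets of a gene, differences moved by more for 3 members with the mean of probe sets, 5 with the largest difference and 2 without those suffixes, and for 0 otherwise. No paired analysis was possible because each group holds 1 array. Signal near background limits MX2, GBP1 and CXCL10, and 14 members have no level above it.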

Other observations

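Further lists, drawn up after the values of MX2, GBP1 and MYD88 had been seen, carry no test. The list of Toll-like and interleukin-1 receptor signalling genes leaves out genes read above, among them TICAM1 and MYD88, which was 2.15-fold lower. Of its 15 measured genes, 0 were beyond 1.5-fold and the median difference was 0.03. NFKB1, a subunit of NF-kappaB, had the lowest, at 7.98 in miR-130b cells and 8.32 in empty vector cells. IL1R1, a receptor for interleukin-1, had the highest, at 9.54 in miR-130b cells and 9.29 in empty vector cells.

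Across all measured genes, 2.68% were at least 1.5-fold lower and 0.294% at least 1.5-fold higher. A list of other large GTPases, the family that holds the MX and GBP proteins, leaves out MX1, MX2, GBP1 and GBP2. Those were read above, and MX2 and GBP1 were lower there. Of the 9 measured genes in this list, 1 was beyond 1.5-fold. It was ATL3, which shapes the endoplasmic reticulum, at 8.93 in miR-130b cells and 9.87 in empty vector cells, and its other measured probe set differed by -0.47. GBP4 and GBP5 were below the floor in both arrays, and GBP2 stood at 7.61 in miR-130b cells and 7.58 in empty vector cells. Of 10 measured genes in a further antiviral list, none of which conjugates ISG15, 0 were beyond 1.5-fold. The cytidine deaminase APOBEC3B had the largest difference, at 5.92 in miR-130b cells and 5.43 in empty vector cells.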
